A study of Danio rerio with 6 samples.

Results

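The genes described here are sox9a, sox9b, sox10, sox4a, sox11a, sox11b, sox21a and sox21b of the zebrafish, Sox transcription factors that belong neither to the SoxB1 group nor to the endoderm factors of the family. They were chosen by name, and 6 of the 8 genes were found on the array, through 8 of its 38489 targets. A target is a set of short probes for 1 predicted transcript. Neither sox10 nor sox21b had a target carrying its name, so no level is given for either. Sox proteins bind DNA through an HMG box and bend it. The genes fall into SoxE (sox9a, sox9b, sox10), known for neural crest, cartilage and gonad, SoxC (sox4a, sox11a, sox11b), known for neuronal progenitors and differentiating neurons, and SoxB2 (sox21a, sox21b), known for repressing SoxB1 targets in the neural plate. Zebrafish keeps a pair of copies of many of these genes from the genome duplication of teleost fishes, marked a and b.

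Total RNA came from sphere-stage embryos, late blastulae whose own genome has recently become active, and was hybridised to 1-colour arrays. In the group nanog-like-MO1, 3 arrays held RNA of embryos injected with a morpholino, an antisense oligonucleotide, against nanog-like, now called nanog, a homeobox factor that the mother loads into the egg, and the labels give these embryos a gastrulation defect. In the group control-MO, 3 arrays held RNA of embryos injected with a control morpholino, which the labels call normal in phenotype. The labels describe separate cultures and give neither the strain nor how many embryos were pooled, and only 1 morpholino against nanog-like was used in these samples.

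A morpholino need not lower the transcript it binds, and nanog itself read 14.93, 14.93 and 14.82 on the log2 scale in nanog-like-MO1 embryos, against 14.90, 14.98 and 14.85 in control-MO embryos (log2 fold change -0.02, SE 0.10, 2-sided exact permutation p = 0.7). This level therefore does not check the labels. Levels are normalized intensities on the log2 scale throughout, and their number of arrays limits the precision. Raw medians per array ran between 408 and 529, and pairs of arrays correlated at 0.975 to 0.989 across targets. The array numbers fall into ranges, and 1 range holds nanog-like-MO1 replicate 3 with all 3 control-MO arrays, while nanog-like-MO1 replicates 1 and 2 lie in a range each. As a check of the stage, the 7 measured maternal genes had mean levels of 10.25 to 14.9. The 6 measured genes of late tissues, ins and tnnt2a among them, had 6.31 to 7.24, on an array whose lowest normalized value was 5.66. Between the groups, no maternal gene had a limma adjusted p under 0.05. The largest maternal log2 fold changes were those of zar1 and gdf3, -0.33 and -0.21. Of 8 early zygotic genes 5 fell, led by sox3, tbx16, blf and vox with log2 fold changes of -4.16, -4.15, -3.62 and -3.05, and mxtx2 was the other. By the same rule 0.39% of all targets were lower, and the list was chosen with earlier results of these data known. The notochord and tail gene tbxta rose (1.26, limma adjusted p = 0.0401), with an adjusted p of 0.0709 to 0.167 whichever array was left out.

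Among the 8 targets, 1 rose and none fell in nanog-like-MO1 embryos at a limma adjusted p under 0.05, and the 1 that rose was sox9a. Over all targets, 0.257% were higher and 0.39% lower by the same rule. With no adjustment, limma p-values under 0.05 were found for 4 of the 8, 2 higher and 2 lower, against 10.3% of all targets, 5.3% higher and 5.03% lower. In the authors' RMA table the same adjusted rule again called 1 of the 8 higher, sox9a, and 0 lower, where 0.423% of all targets were higher, 0.535% lower and 0.959% either. The 3 nanog-like-MO1 levels lay wholly outside the 3 control-MO levels for 4 of the 8 targets, those of sox9a and sox4a above and both of sox21a below, where 15.3% of all targets showed such a gap, 7.36% above and 7.97% below. The median log2 fold change was -0.24 over the 8 targets, which count sox11a and sox21a 2 times each, and -0.004 over the 6 genes with 1 target each (3 positive, 3 negative), beside -0.01 over all targets.

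**Figure D1:**
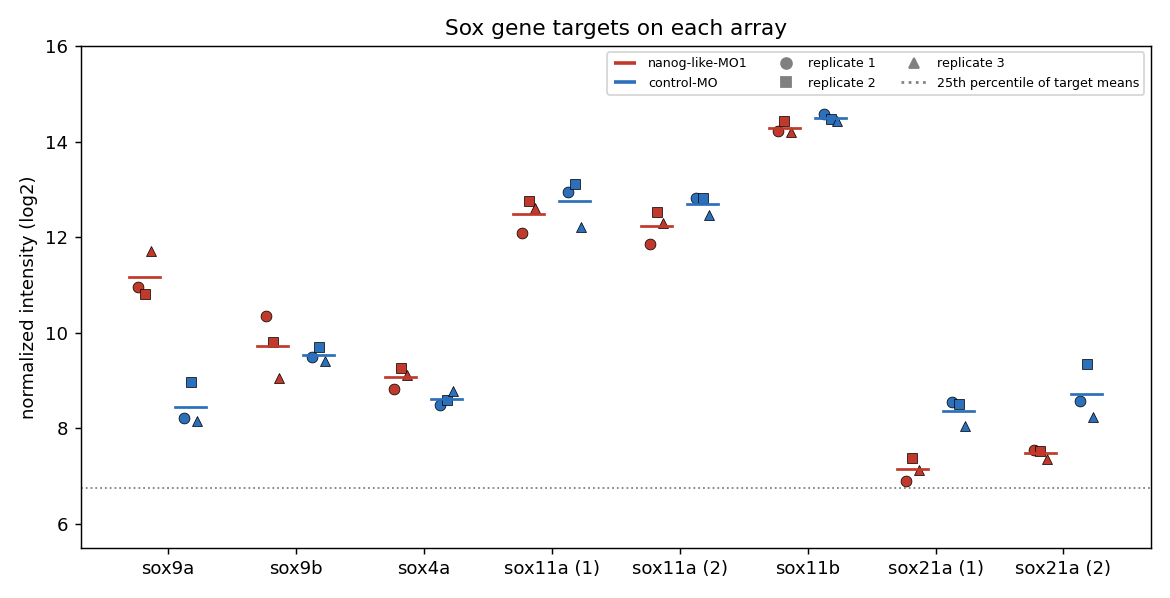
Normalized intensity (log2) of the 8 targets on each array, nanog-like-MO1 in red on the left and control-MO in blue on the right of each pair, with symbols for replicates, short lines for means and a dotted line at the 25th percentile of target means (6.74). The red and blue symbols of sox9a lie apart at 10.80 to 11.71 and 8.16 to 8.96, while those of sox9b and both sox11a targets overlap. Where a gene has a pair of targets, (1) and (2) are the first and second described in the text.

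The SoxE gene sox9a, a regulator of cartilage differentiation and of testis development in vertebrates, was 6.56-fold higher in nanog-like-MO1 embryos. Its target lies on chromosome 12 of assembly Zv7 at chr12:537878-541519, matches human SOX9 and was named by its map marker. Its levels were 10.96, 10.80 and 11.71 in nanog-like-MO1 embryos, against 8.21, 8.96 and 8.16 in control-MO embryos. Every nanog-like-MO1 array was above every control-MO array, and the third replicate was the highest. The means were 11.16 ± 0.48 and 8.44 ± 0.45 (SD, n = 3 each), a log2 fold change of 2.71 (SE 0.31, 95% interval 1.85 to 3.58, limma adjusted p = 0.0216). The interval spans 3.60-fold to 11.9-fold. Raw intensities were 2103, 1744 and 3550 in nanog-like-MO1 embryos and 342, 522 and 314 in control-MO embryos, so the gap is present before any normalization. In the authors' RMA table the log2 fold change was 2.82 (limma adjusted p = 0.00517). With 3 arrays against 3 the exact permutation test cannot go below 0.1, the 2-sided value it gave here. Since whole embryos were measured, more cells with the transcript and more transcript per cell cannot be told apart here or below.

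Each nanog-like-MO1 array set against the control-MO mean gave 5.72-fold, 5.13-fold and 9.60-fold. The last is replicate 3, the 1 nanog-like-MO1 array in the array number range of the controls. With the range as a batch term, nanog-like-MO1 replicates 1 and 2 each take up a term of their own. The log2 fold change of 3.26 in that fit is therefore replicate 3 alone against the controls, not a separate result. The limma adjusted p of sox9a missed the threshold in 5 of the 6 fits that left out 1 array, all but that without control-MO replicate 2. Over those 6 fits the log2 fold change stayed between 2.46 and 2.95 and the limma adjusted p between 0.0285 and 0.104.

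**Figure D2:**
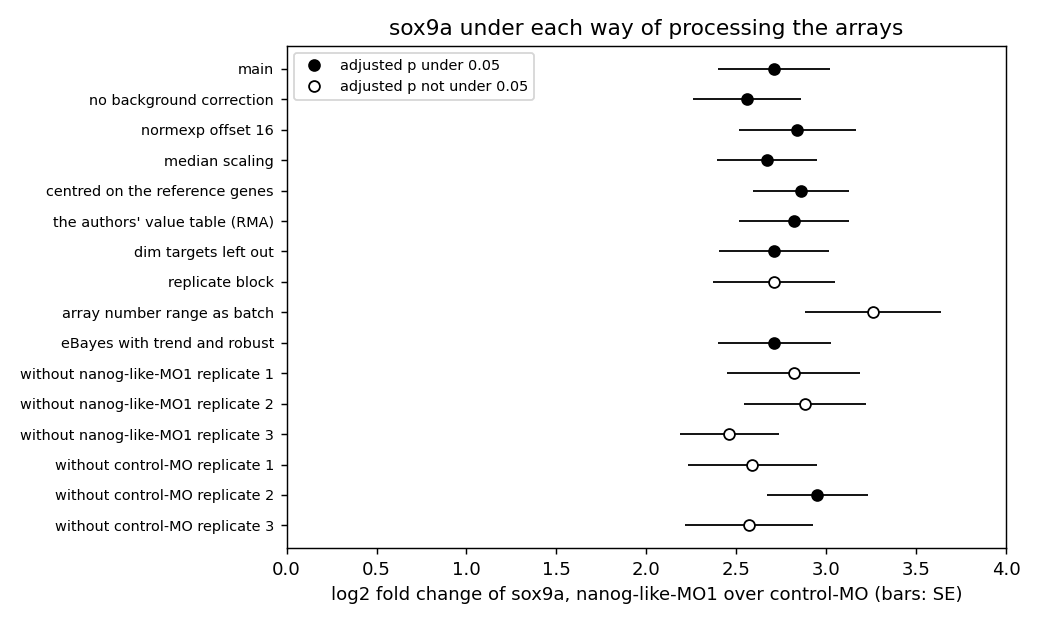
Log2 fold change of sox9a, nanog-like-MO1 over control-MO, with bars of 1 SE, for the fit in the text at the top and 15 other ways to process or fit the arrays. Filled circles mark an adjusted p under 0.05, and all 16 values lie between 2.46 and 3.26. The value of 3.26, with the array range as batch, is nanog-like-MO1 replicate 3 alone against the controls.

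The second copy, sox9b, which in zebrafish takes part in neural crest and craniofacial cartilage development, had overlapping groups. Its target, at chr3:60691114-60697699 of Zv7, was named by an EST marker and also matches human SOX9. The levels were 10.34, 9.80 and 9.05 in nanog-like-MO1 embryos and 9.50, 9.69 and 9.41 in control-MO embryos. The nanog-like-MO1 arrays hold both the highest and the lowest value. The log2 fold change was 0.20 (SE 0.31, 95% interval -0.67 to 1.07, limma adjusted p = 0.911), which allows anything between 0.627-fold and 2.09-fold. Its sign turned to -0.11 without nanog-like-MO1 replicate 1. With the array range as a batch, which sets nanog-like-MO1 replicate 3 alone against the controls, it was -0.48.

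Within each array, sox9a minus sox9b was 1.71, 2.09 and 3.75 in nanog-like-MO1 embryos, against -0.20, 0.35 and -0.15 in control-MO embryos, after both were set relative to their control-MO means. The mean difference was 2.52 ± 1.08 in nanog-like-MO1 embryos and 0 ± 0.31 in control-MO embryos (SD, n = 3 each; 2-sided exact permutation p = 0.1, the smallest that 3 against 3 allows). All 3 nanog-like-MO1 values were above all 3 control-MO values, but the test cannot reach 0.05. The groups of sox9a itself already lay apart on these same arrays, so this is not separate evidence. The largest difference, in replicate 3, joins the highest sox9a level with the lowest sox9b level.

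The third SoxE gene, sox10, a neural crest factor, had no named target. A single target without a zebrafish name matches human SOX10, on chromosome 16 of Zv7, and it read 6.83, 6.88 and 6.57 in nanog-like-MO1 embryos and 6.82, 6.83 and 6.89 in control-MO embryos (log2 fold change -0.09, limma adjusted p = 0.885). Another SoxE gene, sox8b, not among the 8, read 10.87, 11.51 and 10.89 in nanog-like-MO1 embryos and 10.71, 10.46 and 10.81 in control-MO embryos. Its groups did not overlap and its log2 fold change was 0.43 (SE 0.21, limma adjusted p = 0.556).

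**Figure D3:**
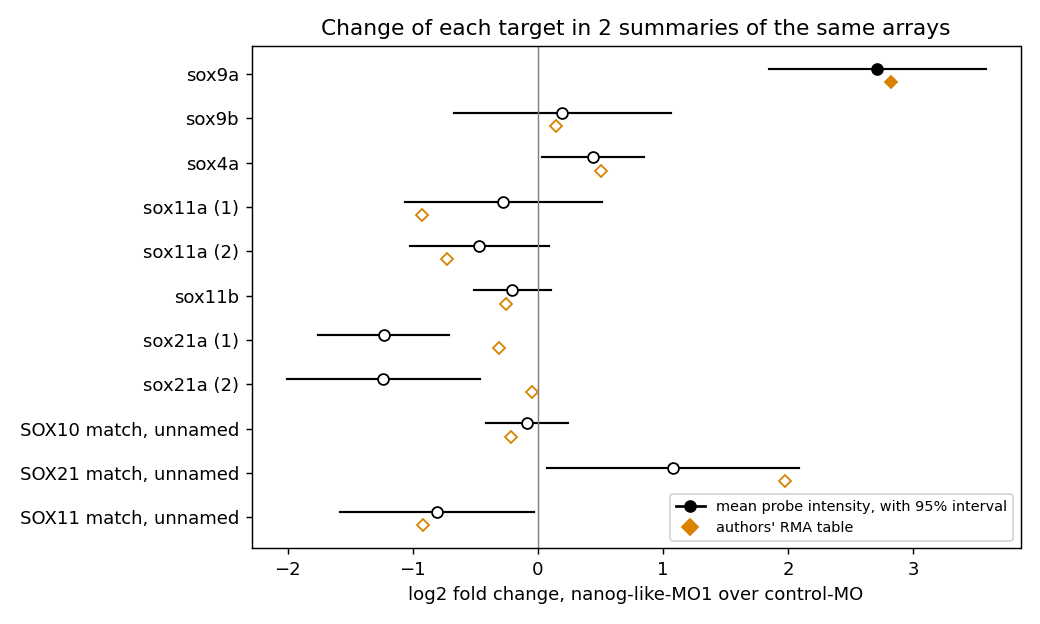
Log2 fold change, nanog-like-MO1 over control-MO, of the 8 targets and 3 unnamed targets that match human SOX10, SOX21 and SOX11, from mean probe intensities (circles, with 95% intervals) and from the authors' RMA table (diamonds), filled where the adjusted p was under 0.05. Both summaries of sox9a are filled, at 2.71 and 2.82, and those of the sox21a targets lie apart, at -1.23 and -1.24 against -0.31 and -0.04.

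Of the SoxC genes, none of 4 targets passed, where 0.647% of all targets did. The sox4a target lies at chr19:17133257-17136517 of Zv7. It read 8.83, 9.25 and 9.11 in nanog-like-MO1 embryos, against 8.49, 8.60 and 8.77 in control-MO embryos. The groups did not overlap, although the highest control-MO array and the lowest nanog-like-MO1 array lie close together. The log2 fold change was 0.44 (SE 0.15, 95% interval 0.03 to 0.85, limma adjusted p = 0.365) and 0.51 in the RMA table. It stayed above 0 under all 15 alternatives, at 0.35 to 0.63, and passed in none. The alternatives reuse the same arrays, on which the groups already lay apart, so the steady sign is not separate evidence.

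The array holds a pair of sox11a targets, both on chromosome 17 of Zv7 but far apart. The first, at chr17:17979424-17982721, was named by its symbol in the design. It read 12.08, 12.76 and 12.60 in nanog-like-MO1 embryos and 12.95, 13.11 and 12.22 in control-MO embryos, with the groups overlapping. Its log2 fold change was -0.28 (SE 0.28, limma adjusted p = 0.833). In the RMA table the groups did not overlap, at 10.66, 11.88 and 11.54 in nanog-like-MO1 embryos and 12.24, 12.32 and 12.29 in control-MO embryos, and the log2 fold change was -0.92 (limma adjusted p = 0.316).

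The second sox11a target, at chr17:51097420-51100702, was named by its map marker. It read 11.86, 12.53 and 12.30 in nanog-like-MO1 embryos, against 12.81, 12.82 and 12.46 in control-MO embryos. The groups met only where nanog-like-MO1 replicate 2 exceeded control-MO replicate 3, and the log2 fold change was -0.47 (SE 0.20, limma adjusted p = 0.501). Inside the span of this target lies an unnamed one that matches human SOX11, at chr17:51097714-51098243. It read 9.92, 10.94 and 10.78 in nanog-like-MO1 embryos and 11.15, 11.35 and 11.56 in control-MO embryos, without overlap (-0.81, SE 0.28, limma adjusted p = 0.385). The sox11b target, at chr20:32653125-32655823, read 14.22, 14.43 and 14.20 in nanog-like-MO1 embryos and 14.57, 14.47 and 14.43 in control-MO embryos (-0.20, SE 0.11, limma adjusted p = 0.622). All 3 named sox11 targets had negative values under every alternative run, and none passed in any. A pair of them is named for the same gene, sox11a, and the alternatives reuse the same arrays, so these are not separate evidence.

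Within each array, the first sox11a target minus sox11b, set relative to the control-MO means, was -0.41, 0.06 and 0.13 in nanog-like-MO1 embryos and 0.11, 0.37 and -0.48 in control-MO embryos. These values overlapped (2-sided exact permutation p = 0.9). The second sox11a target minus sox11b was -0.57, -0.12 and -0.11 in nanog-like-MO1 embryos and 0.04, 0.14 and -0.18 in control-MO embryos, and these overlapped too (2-sided exact permutation p = 0.3). Over the 3 such comparisons of a and b copies, the Benjamini-Hochberg adjusted permutation p was 0.3 for sox9a and 0.9 and 0.45 for the sox11a targets.

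The SoxB2 gene sox21a had the lowest log2 fold changes of the 8 targets, -1.23 and -1.24, and neither passed the test. The first target is placed on a sequence called AB in the design, at 2376727 to 2377797, and the second at chr6:1205740-1206868 of Zv7. Targets of fkbp11 and dzip1 lie within 250 kb of both, and the RefSeq table lists a single sox21a gene. The first read 6.90, 7.38 and 7.13 in nanog-like-MO1 embryos, against 8.54, 8.51 and 8.04 in control-MO embryos (SE 0.19, 95% interval -1.76 to -0.71, limma adjusted p = 0.0619). The second read 7.54, 7.53 and 7.36 in nanog-like-MO1 embryos, against 8.56, 9.34 and 8.23 in control-MO embryos (SE 0.28, 95% interval -2.01 to -0.46, limma adjusted p = 0.186). On both targets every nanog-like-MO1 array was below every control-MO array, by a mean of 2.35-fold. As targets named for 1 gene they are not separate evidence.

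The gap in sox21a was not present in the authors' RMA table. There the first target read 4.84, 5.52 and 5.24 in nanog-like-MO1 embryos and 5.68, 5.79 and 5.08 in control-MO embryos (log2 fold change -0.31, limma adjusted p = 0.756). The second read 6.38, 6.19 and 6.15 in nanog-like-MO1 embryos and 6.77, 5.92 and 6.16 in control-MO embryos (-0.04, limma adjusted p = 0.976). Both had overlapping groups. The mean of the probes, which the fit uses, and RMA, which fits the probes robustly, thus gave sizes that differ by more than 1.5 times.

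The deposited coefficient of variation over the 10 probes of each sox21a target moved with this. For the first target it was 0.343 to 0.647 in nanog-like-MO1 embryos and 1.381 to 1.835 in control-MO embryos. For the second it was 0.335 to 0.538 in nanog-like-MO1 embryos and 1.184 to 2.135 in control-MO embryos. The probes of each target were thus more uneven on the control-MO arrays. Values of single probes were not used here, and the part of this spread in the difference was not tested. For sox9a the nanog-like-MO1 arrays had the larger spread, at 1.144 to 1.353 against 0.652 to 0.889 in control-MO embryos. Its RMA value stayed close to that of the mean. For sox9a and sox21a alike, the larger spread lay in the group with the higher intensity. The first sox11a target also had spreads that lay apart, at 1.325 to 1.377 in nanog-like-MO1 embryos and 0.879 to 1.15 in control-MO embryos. Its log2 fold change was -0.28 from the mean and -0.92 in the RMA table.

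**Figure D4:**
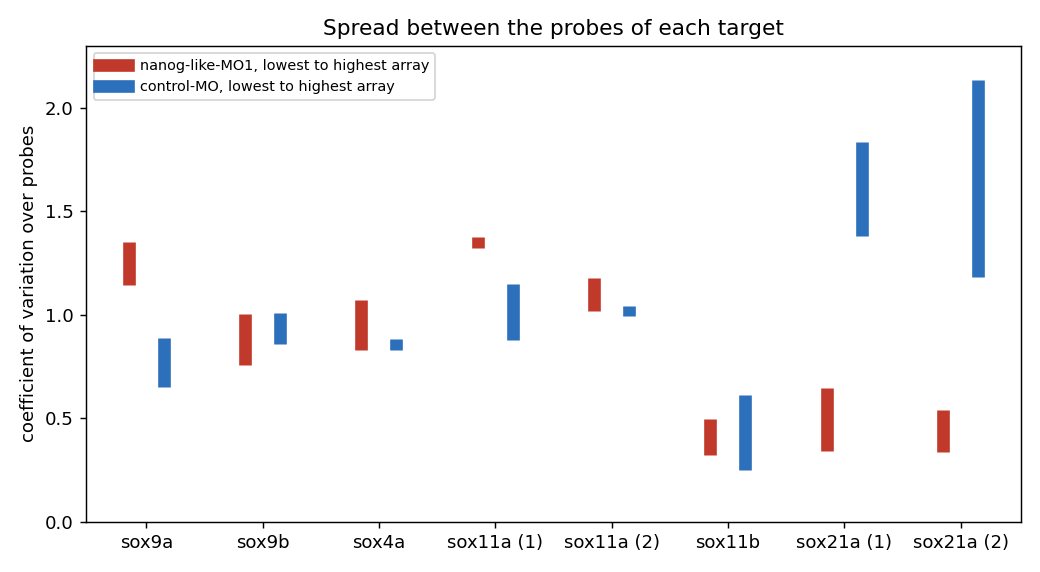
Coefficient of variation over the probes of each target, with bars from the lowest to the highest of 3 arrays, nanog-like-MO1 in red on the left and control-MO in blue on the right. The sox21a bars of the groups lie apart, at 0.343 to 0.647 and 1.381 to 1.835 for the first target, and those of sox9b overlap. The bars of sox9a and of the first sox11a target lie apart too, with nanog-like-MO1 higher.

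The gene sox21b had no named target. An unnamed target that matches human SOX21, on chromosome 14 of Zv7, read 7.11, 8.52 and 7.90 in nanog-like-MO1 embryos and 6.66, 6.50 and 7.12 in control-MO embryos. Its groups met at 7.11 and 7.12, and its log2 fold change was 1.08 (SE 0.36, limma adjusted p = 0.368) and 1.97 in the RMA table (limma adjusted p = 0.233). Its sign is opposite to that of the sox21a targets, and neither difference passed.

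Besides the 8, the array named 14 other Sox genes, of which 1 fell and none rose, where 0.39% of all targets were lower and 0.257% higher. That gene was sox3, a SoxB1 factor of the early ectoderm, at 9.28, 10.02 and 9.47 in nanog-like-MO1 embryos and 13.64, 13.88 and 13.71 in control-MO embryos (limma adjusted p = 0.00164). The endoderm factor sox17 read 7.61, 8.41 and 8.32 in nanog-like-MO1 embryos and 9.09, 8.97 and 9.49 in control-MO embryos, without overlap (log2 fold change -1.07, limma adjusted p = 0.205, and 0.0531 in the RMA table). The other SoxB1 genes did not pass, with log2 fold changes of -0.24 for sox19a, -0.12 and -0.02 for the targets of the maternal sox19b, -0.15 and 0.06 for those of sox2, and -0.01 for sox1b. Nor did sox14 (0.23), sox6 (-0.19), sox13 (0.06 and 0.09), sox7 (-0.20), sox18 (0.18) or sox12 (-0.04). Of the 14 genes, 5 had mean levels under 6.74, the 25th percentile of target means, and may not have been detected. These were sox1b, sox14, sox6, sox7 and sox12. The second sox2 target was dim too, with means of 6.08 in nanog-like-MO1 embryos and 6.02 in control-MO embryos. The median over the 14 genes was -0.08. In the RMA table the first sox2 target had a log2 fold change of -0.86 (limma adjusted p = 0.235), without overlap. It read 5.65, 5.84 and 5.52 there in nanog-like-MO1 embryos and 6.06, 6.62 and 6.9 in control-MO embryos. The SoxD gene sox5, which acts with sox9 genes in cartilage, read 12.06, 6.86 and 7.27 in nanog-like-MO1 embryos and 7.05, 10.65 and 7.13 in control-MO embryos. Its levels were high on 1 array of each group, and its log2 fold change of 0.46 had an SE of 1.61.

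Of the genes of tissues in which sox9 and SoxC genes are known to act, few passed the adjusted threshold. Of 21 measured neural crest genes, 1 fell and none rose, where 0.39% of all targets were lower and 0.257% higher. Their median log2 fold change was -0.02. Unadjusted limma p-values under 0.05 were found for 2 higher and 5 lower, against 5.3% and 5.03% of all targets. The groups did not overlap for 7 of the 21, against 15.3% of all targets. The gene that passed was snai2, a repressor of epithelial genes, at 12.42, 12.48 and 12.40 in nanog-like-MO1 embryos and 13.42, 13.78 and 13.72 in control-MO embryos (-1.21, SE 0.13, limma adjusted p = 0.0136). With 1 array left out the adjusted p was 0.0539 to 0.0896 in 5 of 6 fits, all but that without control-MO replicate 1. It was not the largest change of the list. The lowest was -2.035, of zic2a (limma adjusted p = 0.164), and the highest 0.719, of tfap2e (limma adjusted p = 0.412). None of 10 chondrocyte genes passed (median -0.06). Their median level of 6.89 lay inside the 6.31 to 7.24 of the late-tissue genes, so some of the 10 may not have been detected. Of the 10, the cartilage matrix gene matn4 had -0.52 (SE 0.13, limma adjusted p = 0.241). The collagen gene col2a1a, a sox9 target named after its value was seen, had -0.05. Its mean levels were 7.25 in nanog-like-MO1 embryos and 7.30 in control-MO embryos. An unadjusted limma p under 0.05 was found for 1 of the 10, near the 10.3% of all targets. None of 9 genes of gonad development passed either (median -0.07), and wt1a and nr5a2 had the largest sizes, -0.41 and -0.35. The median level of these 9 was 7.22, also inside the late-tissue range. None of the 9 had an unadjusted limma p under 0.05, against the same 10.3% of all targets.

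The 19 measured neurogenesis genes had a median log2 fold change of -0.01. Of them 1 rose and none fell, where 0.257% of all targets were higher and 0.39% lower. The target that rose carries the map marker of the Notch ligand gene dld and matches human DLL4. The name dld is the symbol of 1 gene and an older symbol of another in the RefSeq table, so its name is uncertain. It read 10.42, 10.36 and 10.49 in nanog-like-MO1 embryos and 9.0, 8.16 and 8.56 in control-MO embryos (1.85, SE 0.21, limma adjusted p = 0.0215). With 1 array left out the adjusted p was 0.0863 to 0.112 in 4 of 6 fits, all but those without control-MO replicate 1 or 2. The related ligands dlb and dla, named after their values were seen, had log2 fold changes of 1.87 and 1.80 with limma adjusted p of 0.0613 and 0.168, and dlb passed in the RMA table (2.84, limma adjusted p = 0.0121). With no adjustment, limma p-values under 0.05 were found for 6 of the 19, all higher, against 5.3% of all targets higher and 5.03% lower. Over the whole list 9 log2 fold changes were positive and 10 negative, and the Delta ligands had the largest.

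Genes of the extraembryonic layers of the blastula were read as well. Of 7 yolk syncytial layer genes 3 fell, hnf4a, mxtx2 and gata6, with log2 fold changes of -3.00, -2.69 and -2.37. By the same rule 0.39% of all targets were lower, and the list was chosen with earlier results of these data known. The brightest gene of the list, apoeb, at a mean level of 13.06, had -0.09, and gata5 had the 1 positive value, 0.51. The summed raw intensity of the list, not normalized between arrays, was 9552 to 13135 in nanog-like-MO1 embryos and 13011 to 17705 in control-MO embryos. With 1 array left out, hnf4a passed only without nanog-like-MO1 replicate 2 or control-MO replicate 1, mxtx2 only without nanog-like-MO1 replicate 2 and gata6 only without control-MO replicate 1. None of 11 enveloping layer genes passed, where 0.647% of all targets did. Their summed raw intensity was 41097 to 65083 in nanog-like-MO1 embryos and 35894 to 60222 in control-MO embryos. Their log2 fold changes were 5 positive and 6 negative, at -0.62 to 2.16, with a median of -0.04. Here evpla, an envoplakin gene, read 10.20, 9.70 and 11.39 in nanog-like-MO1 embryos and 8.50, 7.93 and 8.39 in control-MO embryos (2.16, SE 0.43, limma adjusted p = 0.131, and 0.0452 in the RMA table), and the claudin gene cldne had 0.64. In nanog-like-MO1 embryos hnf4a read 6.10, 6.63 and 6.08 and gata6 6.77, 6.69 and 6.59, near the low end of the arrays. In control-MO embryos hnf4a read 8.57, 9.63 and 9.62 and gata6 8.42, 9.43 and 9.31. The mean of mxtx2 was 9.32 in nanog-like-MO1 embryos and 12.01 in control-MO embryos. The part of these layers in the level of sox9a or sox21a was not tested. Of 13 reference genes none passed (median -0.06), with gapdh at -0.23 and b2m at -0.22.

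**Figure D5:**
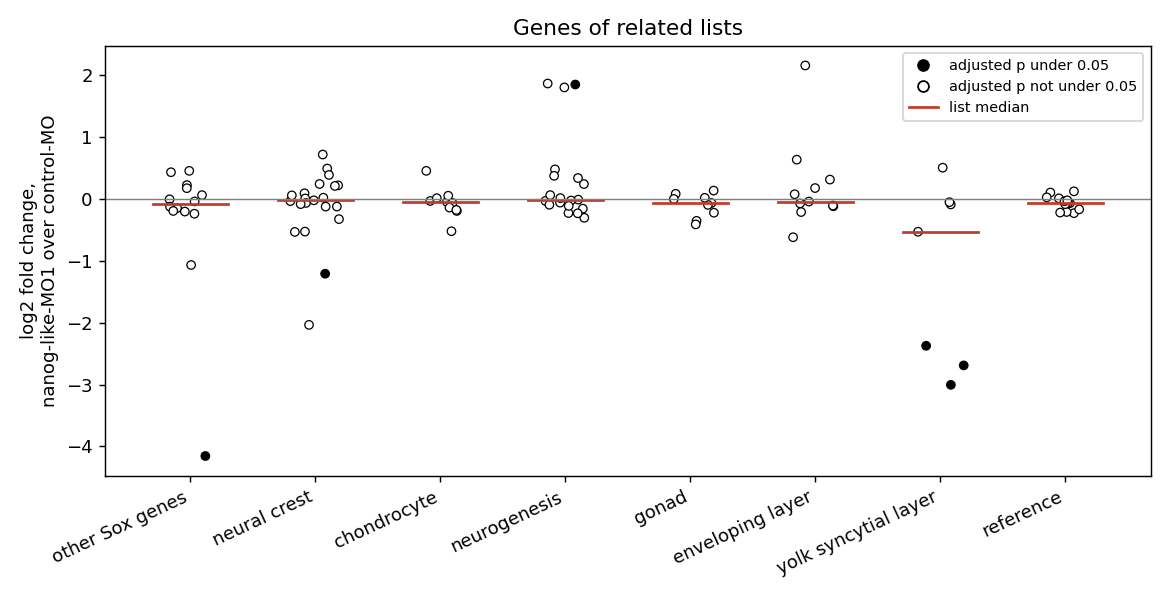
Log2 fold change, nanog-like-MO1 over control-MO, of the measured genes of 8 lists, filled where the adjusted p was under 0.05, with red lines for list medians. Filled points are sox3, snai2, the target named dld, and the yolk syncytial layer genes hnf4a, mxtx2 and gata6, and the chondrocyte and gonad lists have none.

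The named genes whose levels over the 6 arrays were most like those of sox9a, each set relative to its control-MO mean, were carmil2, fzd10, si:ch211-214c11.1, sp5l and arrdc3a, with root mean square differences of 0.450, 0.496, 0.536, 0.544 and 0.567 on the log2 scale. The Wnt receptor gene fzd10 read 11.11, 10.54 and 11.12 in nanog-like-MO1 embryos and 8.63, 9.03 and 8.76 in control-MO embryos (log2 fold change 2.12, limma adjusted p = 0.00909). Its adjusted p was 0.0504 without nanog-like-MO1 replicate 1, 0.0547 without nanog-like-MO1 replicate 3 and 0.0642 without control-MO replicate 3. The zinc finger gene sp5l, a target of Wnt signalling in zebrafish, read 12.57, 12.43 and 13.40 in nanog-like-MO1 embryos and 10.24, 11.09 and 10.98 in control-MO embryos (2.03, limma adjusted p = 0.0796). The genes carmil2, si:ch211-214c11.1 and arrdc3a had log2 fold changes of 2.205, 2.297 and 2.092 (limma adjusted p = 0.0282, 0.00627 and 0.032). With 1 array left out their adjusted p was 0.0402 to 0.137, 0.00797 to 0.045 and 0.038 to 0.122. Of these 5 genes, si:ch211-214c11.1 was highest on nanog-like-MO1 replicate 2 and the other 4, like sox9a, on replicate 3, fzd10 by a narrow margin over replicate 1. The 5 were picked for their likeness to sox9a on these same arrays, so a shared direction or highest array is no separate support. For the first sox21a target the nearest were calm3a, si:dkey-83f18.7, nt5c3a, si:ch211-113p18.3 and asb11 (0.164 to 0.223). For the second they were LOC798736, vent, asb11, olfcq10 and si:dkey-83f18.7 (0.191 to 0.271). Of these, picked in the same way by likeness to sox21a, nt5c3a and asb11 fell, with log2 fold changes of -1.40 and -1.21 (limma adjusted p = 0.00909 and 0.0106). Without control-MO replicate 3 these adjusted p were 0.0642 and 0.0541, and asb11 also missed the threshold without nanog-like-MO1 replicate 2 or 3 (0.0590 and 0.0643). The homeobox repressor gene vent had -1.16 (limma adjusted p = 0.0995).

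The neighbours of sox9a on Zv7 gave no call. Of 15 targets within 250 kb on either side, none passed, where 0.647% of all targets did. The log2 fold changes of these 15 ran between -0.38 and 0.15. They include dcxr (-0.32 to -0.24), rfng and col1a1b. Around the second sox11a target 1 of 8 neighbours rose, where 0.257% of all targets were higher. It was gch1, an enzyme gene of pterin synthesis, with a log2 fold change of 0.90 (limma adjusted p = 0.0416). Its adjusted p was 0.0577 to 0.172 whichever array was left out. No neighbour of sox9b, sox11b, the first sox11a target or either sox21a target passed, and sox4a had no other target in the window.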

How the data were processed

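Per the file headers, the authors deposited for each array and target an intensity, the mean of its perfect-match probes on a linear scale and not normalized between arrays, with the number of probes and their coefficient of variation as other columns. Per the submitters' processing notes RMA was used, of unstated version, and the authors deposited a second table of intensities that is taken to be its output. Its column medians were 179.39 to 200.32, and its scaling and centring beyond the name stay unknown. Detection calls were not used here. Raw array minimums were 77 to 119.

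Intensities were background corrected with normexp (offset 50), quantile normalized and taken to log2 with limma 3.58.1 in R 4.3.3. The offset understates the fold changes of dim targets. All 38489 targets were fitted (lmFit, then eBayes, 2-sided, with group alone in the model), and calls used a Benjamini-Hochberg adjusted p under 0.05 over all of them. Intervals of 95% use the SE and the residual degrees of freedom. Replicates are separate cultures per the labels. Titles number the replicates 1 to 3 in both groups, but the deviations of same-numbered arrays correlated at -0.013, -0.097 and 0.171, so no pairing was used. With so few arrays these values cannot settle whether the replicates were paired. The fit was also run on data simulated with 38489 targets and independent noise per array, so effects shared between arrays were not covered.

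Targets were named by RefSeq accession, symbol, Entrez number, synonym or map marker through a RefSeq gene table (GRCz12tu), none of whose coordinates are given. This named 17850 targets of 12410 genes. Where 2983 targets were named both ways, the marker gave the same gene for 93.0%. The 1380 reverse-strand targets were not named. Positions are those of the array design, on Zv7.

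The members and the lists (other Sox, neural crest, chondrocyte, neurogenesis, gonad, enveloping layer, yolk syncytial layer, early zygotic, maternal, late tissue and reference genes) were chosen with earlier results of these data known. Named are all members, every other measured Sox gene, up to 4 passing genes of each list (or the 2 with the largest size), and the 5 most similar genes of each member that changed by 1 or more on the log2 scale, either way, without overlap. Outside this rule, tbxta, dla, dlb, col2a1a, zic2a, tfap2e, gch1 and a few neighbours of members were named after their values were seen. A gene with several targets is represented by the brightest, members excepted. Alternatives covered background, scaling, the RMA table, dim targets (means under the 25th percentile), the variance model, replicate block, array range and each array left out. No sequences are shown, since none were used here.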

Additional observations from a re-analysis of the deposited data

How the results depend on the processing

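Over the 15 alternatives, sox9a kept its direction in all and its call in 8. The alternatives reuse the same arrays, on which its groups already lay apart, so the steady direction is not separate evidence. The log2 fold change of sox9a was 2.71 (limma adjusted p = 0.0944) with the replicate block. It was 2.46 to 2.95 with an array left out (limma adjusted p = 0.0285 to 0.104), passing only without control-MO replicate 2. With the array range as batch it was 3.26. That fit sets nanog-like-MO1 replicate 3 alone against the controls, for every target. The first sox21a target passed with offset 16 (-1.48, adjusted p = 0.0460), median scaling (-1.25, 0.0187) and dim targets left out (-1.23, 0.0395), so 1 member fell there, against 0 in the report. The counts of all targets, 99 higher and 150 lower, became 163 higher in the RMA table, 46 and 88 with the replicate block, 0 and 0 with the array range, and 34 to 67 and 59 to 120 with an array left out. Members that rose numbered 0 with the block, 0 with the range, and 0 to 1 with an array left out. The block changed no other member's call, and whether the replicate numbers pair the arrays could not be settled. Setting arrays on the reference genes put the array-wide median of log2 fold changes at 0.09, against -0.01 here, and median scaling at -0.10. The sox21a levels in nanog-like-MO1 embryos lie near the low end of the arrays, where the offset compresses folds.

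Some signs turned, among them those of sox5 and of LOC798736, whose log2 fold change was -0.998 in the report's fit. For sox9b the value was -0.482 with the range and -0.112 to 0.541 with an array left out. With reference-gene centring it was 0.093 for sox1b, 0.0307 for the first sox2 target, 0.0746 for the second sox19b target, 0.0618 for sox12, 0.0216 for nanog, 0.112 for col2a1a and 0.0404 for the target matching human SOX10. In the RMA table it was 0.0753 for sox1b, -0.0683 for the second sox2 target, -0.0161 for sox14, 0.0261 for sox12 and 0.0448 for LOC798736. Median scaling gave -0.0648 for the second sox2 target and -0.0678 and -0.028 for the sox13 targets. The range as batch gave -0.159 for sox14, -1.01 for sox5, -0.00768 for the second sox13 target and -0.00702 for sox18. Leaving out an array gave -0.0869 to 0.0505 for sox1b, -0.0559 to 0.141 for the second sox2 target, -0.225 to 0.0282 and -0.207 to 0.208 for the sox19b targets, -1.22 to 1.63 for sox5, -0.0011 to 0.131 for the first sox13 target, -0.0017 to 0.262 for sox18, -0.0841 to 0.0456 for sox12, -0.0412 to 0.021 for nanog, -0.183 to 0.0743 for col2a1a and -0.149 to 0.00521 for the SOX10 match. The cause was not tested.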

Other observations

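The sox5 levels were high on nanog-like-MO1 replicate 1 and control-MO replicate 2 alone. Chosen after these values were seen, a search for targets at least 2 log2 units higher on both of these arrays than on the other 4 found 7, and the same search over each of the 8 other pairings of a nanog-like-MO1 with a control-MO array found 0. Besides sox5, the named ones were mmel1, at 10.40, 6.50 and 6.40 in nanog-like-MO1 embryos and 6.60, 10.68 and 6.80 in control-MO embryos, and both targets of cyp2aa6. The unnamed ones include a target and its own reverse-strand partner, so the 7 targets are not 7 separate genes. The deviations of these 2 arrays from their group means correlated at 0.259 across targets.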
